A study of Mus musculus with 117 samples.

Results

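Naive pluripotency is the state of mouse embryonic stem cells and of the inner cell mass, kept by a network of mutually supporting transcription factors. Followed here were 10 genes commonly listed for that network, namely Nanog, Esrrb, Zfp42, Tfcp2l1, Klf2, Tbx3, Prdm14, Nr0b1, Sall4 and Lin28a. All 10 were found by symbol and Entrez identifier among the 26301 genes of the RNA count table. In textbook accounts many of these factors sit downstream of Oct4 and Sox2, and some receive the LIF signal through STAT3. Many, but not all, are switched on late when fibroblasts are reprogrammed. Lin28a is the exception in kind, since it encodes an RNA-binding protein that blocks maturation of let-7 microRNAs rather than a transcription factor. SUMO is a small protein attached to other proteins by the E2 enzyme Ubc9, and the study directed a hairpin or small interfering RNA against Ubc9 in cells at several points between the fibroblast and the stem cell.

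Of the 117 samples, the 28 RNA-seq libraries enter here, in 10 groups. The groups were mouse embryonic fibroblasts (MEF) taken from E13.5 embryos with a hairpin against Ubc9 (shUbc9, 2 libraries) or a control hairpin (shCtrl, 3 libraries), and such MEF after 4 days (D4) or 7 days (D7) of expressing the factors Oct4, Klf4, Sox2 and Myc (OKSM), with 3 libraries for each hairpin and day. Induced pluripotent cells (iPS) made from MEF had 3 shUbc9 libraries and 2 shCtrl libraries. Embryonic stem (ES) cells were treated with small interfering RNA in place of a hairpin, siUbc9 or siCtrl, with 3 libraries each. Depletion here names the treatment given by the labels, not a measured extent. Strain, the promoter that drives OKSM and whether libraries came from separate cultures are not stated in the labels, and the p-values therefore cover the spread between libraries, which may be technical.

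The stretch before the transcription start is shown for 4 of the genes, to set 3 genes that rose with Ubc9 depletion at D7 beside Klf2, which was not called. RefSeq's promoter table on build GRCm38.p6 held windows for 7 of the 10 genes, and Tbx3, Prdm14 and Sall4 were not among them. Each line gives the 250 bases before the start, 5′ to 3′ on the strand of the gene. Capitals mark the letters TTTGCAT, the core of the octamer bound by Oct4, ACAATG, a Sox motif, CCCACCC, a Klf motif, and AAGGTCA, an Esrrb motif, each searched on both strands.
Nanog (chr6:122707315-122707564, plus strand): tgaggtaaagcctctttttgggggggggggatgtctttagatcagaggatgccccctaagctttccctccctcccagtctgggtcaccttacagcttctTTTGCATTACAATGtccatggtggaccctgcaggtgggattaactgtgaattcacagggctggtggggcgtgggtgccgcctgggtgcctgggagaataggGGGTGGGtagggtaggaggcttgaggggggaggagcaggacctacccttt
Zfp42 (chr8:43307010-43307259, minus strand): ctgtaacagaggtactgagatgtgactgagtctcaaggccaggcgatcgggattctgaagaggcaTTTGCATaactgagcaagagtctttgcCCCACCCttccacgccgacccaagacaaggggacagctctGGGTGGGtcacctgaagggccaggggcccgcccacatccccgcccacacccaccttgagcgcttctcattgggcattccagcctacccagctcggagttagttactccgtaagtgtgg
Nr0b1 (chrX:86191525-86191774, plus strand): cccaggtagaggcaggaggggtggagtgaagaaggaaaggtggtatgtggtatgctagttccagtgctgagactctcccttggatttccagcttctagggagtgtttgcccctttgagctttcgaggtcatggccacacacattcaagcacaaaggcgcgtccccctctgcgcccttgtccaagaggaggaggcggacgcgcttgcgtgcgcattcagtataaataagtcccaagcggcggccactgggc
Klf2 (chr8:72318812-72319061, plus strand): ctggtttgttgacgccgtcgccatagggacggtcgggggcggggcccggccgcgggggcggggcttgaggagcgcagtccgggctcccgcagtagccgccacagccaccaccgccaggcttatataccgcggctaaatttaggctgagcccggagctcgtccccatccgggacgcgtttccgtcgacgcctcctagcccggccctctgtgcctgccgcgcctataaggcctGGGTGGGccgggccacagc
The capitals in Nanog near the middle are a joined octamer and Sox motif, which is TTTGCAT, any base, then ACAANG, and which holds the 2 shorter motifs within it and begins 151 bases before this start. Of all 32851 promoter windows in the table, 3 held that joined motif (0.00913%), 2 of them the overlapping windows of the 2 Nanog starts. Zfp42 held the octamer core 185 bases before its start and the Klf letters at 158 and 118 bases. The octamer core was in 4.12% of all windows, the Sox letters in 10.7%, the Klf letters in 15.8% and the Esrrb letters in 4.08%. Klf2 held the Klf letters 19 bases before its start, and the Nr0b1 window held none of the 4. Outside these 4 windows, the Klf letters were in both Esrrb windows, the Sox letters in the Lin28a window and none in the Tfcp2l1 window. The window of the other Nanog start held the joined motif 75 bases before that start and no Klf letters. A match describes letters and does not show binding.

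Library depth was 11.4 to 58.8 M counts in genes. Here CPM are counts scaled to a common library total after TMM scaling, a correction for composition, and a gene is called changed at an adjusted p under 0.05 in edgeR's quasi-likelihood test. A library that stands apart is MEF shUbc9 replicate 3: of 10 genes that were at 0 in every MEF shCtrl library and at 100 CPM or more in ES siCtrl cells, it held 89 reads in 8 genes, and replicate 1 held 1 read. In bulk RNA, more cells of a kind and more RNA per cell cannot be told apart.

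Across the 10 groups, the genes were low or absent in MEF, higher at D7 and highest in iPS or ES cells, with Klf2 and Tbx3 as exceptions. As a share of the siCtrl ES mean, the median over the 10 genes was 0.328% in shUbc9 and 0.0940% in shCtrl MEF, 0.675% in shUbc9 and 0.265% in shCtrl cells at D4, and 4.02% in shUbc9 and 1.17% in shCtrl cells at D7. It was 252.6% in shUbc9 and 207% in shCtrl iPS cells and 64.7% in siUbc9 ES cells. Tbx3, a T-box factor that also patterns limb mesenchyme, stood in MEF at 94.9% of its siCtrl ES level with shUbc9 and at 84.3% with shCtrl. Klf2, a Krüppel-like factor also known from endothelium, stood at 20.1% in shUbc9 and 23.4% in shCtrl MEF. Sall4, a zinc finger factor, and Lin28a were at 0 in all 3 shCtrl MEF libraries, where a floor of 3 counts over the group equals 0.0236 CPM.

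**Figure D1:**
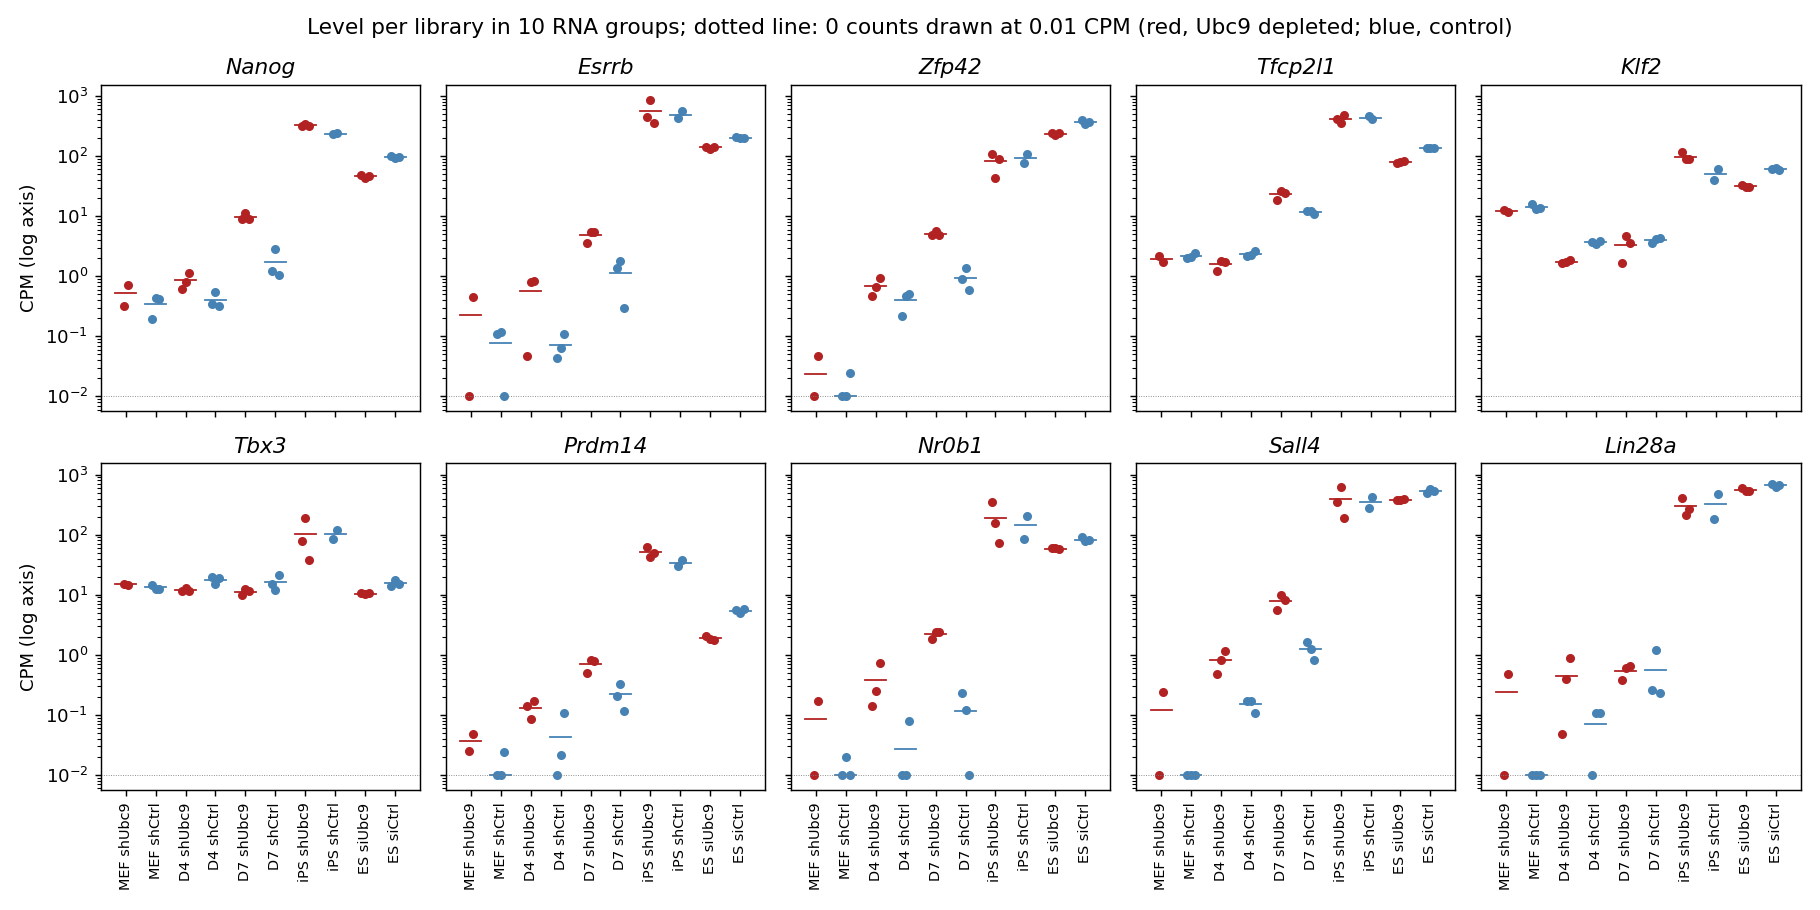
Level of each gene in every RNA library, in CPM on a log axis, with the 10 groups along the horizontal axis and a library with 0 counts drawn at the dotted line. Points are libraries and bars are group means, red for Ubc9 depletion and blue for control. Klf2 and Tbx3 are above 10 CPM in every MEF library, and the other 8 genes stay below 3 CPM there.

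The order of the levels differed between genes. Nanog, the homeodomain factor at the centre of the network, ran from shUbc9 iPS cells through shCtrl iPS, siCtrl ES, siUbc9 ES and shUbc9 D7 to shCtrl D7 with no overlap between the libraries of neighbours. Below that, the D7 shCtrl, D4 and MEF groups overlapped their neighbours. Zfp42, known as Rex1 and used as a marker of naive cells, was instead highest in siCtrl ES cells and then in siUbc9 ES cells, and both iPS groups lay below them. Sall4 and Lin28a were likewise highest in siCtrl ES cells. Esrrb, an orphan nuclear receptor, Tfcp2l1, a factor of the grainyhead family, Tbx3, Prdm14, a PR-domain repressor, and Nr0b1, an orphan nuclear receptor also called Dax1, had their highest means in an iPS group.

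In MEF, which lack the network, depletion of Ubc9 was followed by no called change among these genes. The edgeR test called 0 of the 4 genes with enough counts to test, Nanog, Tfcp2l1, Klf2 and Tbx3 (0 at an unadjusted p under 0.05, and 0 with DESeq2), beside 6.04% of all 16287 genes, made up of 3.83% higher and 2.21% lower. Klf2 had 12.8 and 11.9 CPM in shUbc9 and 16.2, 13.2 and 13.7 CPM in shCtrl MEF, a log2 fold change of -0.22 ± 0.11 (SE, adjusted p = 0.272). Tbx3 had 15.2 and 14.6 CPM in shUbc9 and 14.5, 12.6 and 12.6 CPM in shCtrl MEF (log2 fold change 0.16 ± 0.09, adjusted p = 0.348). The groups did not overlap for either gene, and neither difference passed the adjusted threshold.

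The other 6 genes had too few reads in MEF to test. Lin28a had 0 and 20 reads in the shUbc9 replicates 1 and 3, Esrrb 0 and 19, Sall4 0 and 10 and Nr0b1 0 and 7, so all these reads came from the library that stands apart. Nanog had 13 and 30 reads in shUbc9 and 7, 22 and 17 in shCtrl MEF. Its log2 fold change of 0.52 ± 0.42 (adjusted p = 0.532) became -0.17 without shUbc9 replicate 3. Without shUbc9 replicate 1, Lin28a passed the test on that library alone. In the same comparison, 10 of 14 macrophage markers rose and 0 fell, with a summed level of 389.6 to 392 CPM in shUbc9 and 205 to 283 CPM in shCtrl MEF, and their part in these values was not tested.

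After 4 days of OKSM the response was split. Nanog and Sall4 rose with Ubc9 depletion and Tfcp2l1, Klf2 and Tbx3 fell, 2 higher and 3 lower of 6 tested, beside 27.2% of all 17001 genes higher, 26.1% lower and 53.2% called in either direction. The share higher is near that background and the share lower is above it, in a set of 6 genes. Both shares depend on the filter, since Esrrb, Nr0b1 and Lin28a were also called higher with no filter or with DESeq2. Sall4 had 0.473, 0.822 and 1.15 CPM in shUbc9 and 0.172, 0.170 and 0.107 CPM in shCtrl cells, 5.33-fold higher (log2 fold change 2.41 ± 0.42, adjusted p = 0.00127), so that every depleted library was above every control. It passed the count filter through the depleted libraries alone, with 4, 8 and 4 reads in the controls. Its direction was thus bound to the filter, and the size of its fold is loosely set. Klf2 had 1.63, 1.73 and 1.86 CPM in shUbc9 and 3.69, 3.44 and 3.81 CPM in shCtrl cells, 2.10-fold lower (log2 fold change -1.07 ± 0.13, adjusted p = 0.000145). Tbx3 had 11.7, 12.8 and 11.4 CPM in shUbc9 and 19.7, 15.2 and 18.8 CPM in shCtrl cells (1.48-fold lower, adjusted p = 0.00227). The groups did not overlap in either gene. The Tbx3 call was lost in a single fit of all 28 libraries (adjusted p = 0.205).

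Nanog was still low at D4, with 0.615, 0.805 and 1.15 CPM in shUbc9 and 0.344, 0.552 and 0.322 CPM in shCtrl cells (1.99-fold higher, adjusted p = 0.0241). Its call was lost without shCtrl replicate 1 (adjusted p = 0.0762), shCtrl replicate 3 (0.0933) or shUbc9 replicate 3 (0.059). Tfcp2l1 had 1.21, 1.79 and 1.74 CPM in shUbc9 and 2.15, 2.23 and 2.61 CPM in shCtrl cells (1.47-fold lower, adjusted p = 0.0297), and its call was lost without shCtrl replicate 3 (adjusted p = 0.11) or shUbc9 replicate 1 (0.101). Zfp42 had 0.473, 0.654 and 0.928 CPM in shUbc9 and 0.215, 0.467 and 0.510 CPM in shCtrl cells, which overlapped (log2 fold change 0.67 ± 0.34, adjusted p = 0.121). Esrrb, Nr0b1, Lin28a and Prdm14 were below the count filter. Esrrb had 2, 48 and 30 reads in shUbc9 and 1, 3 and 4 in shCtrl cells, Nr0b1 6, 15 and 26 in shUbc9 and 0, 0 and 3 in shCtrl cells, and Lin28a 2, 24 and 31 in shUbc9 and 0, 5 and 4 in shCtrl cells. Replicates 2 and 3 of the depleted cells held most of these reads. With no filter, or with DESeq2, these 3 were called higher and the count became 8. Macrophage markers again moved with depletion, 13 of 14 higher and 0 lower, summing to 263 to 288 CPM in shUbc9 and 170.3 to 176 CPM in shCtrl cells. Of 18 fibroblast markers 15 fell and 0 rose, summing to 22779 to 25258 CPM in shUbc9 and 32617 to 46207 CPM in shCtrl cells. Of 13 tested epithelial markers 6 rose and 2 fell, with sums of 299 to 319.7 CPM in shUbc9 and 216 to 221 CPM in shCtrl cells over the list of 15. The part of these markers was not tested.

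At D7 depletion of Ubc9 was accompanied by higher RNA of 7 of the 10 genes, Nanog, Esrrb, Zfp42, Tfcp2l1, Prdm14, Nr0b1 and Sall4, and by lower RNA of 0. Klf2, Tbx3 and Lin28a were not called. All 10 passed the count filter in all 3 depleted libraries, but Nr0b1 reached its level in 0 of 3 control libraries, Prdm14 and Lin28a in 1 and Esrrb in 2. Genes that pass only through the group where they are high had to differ, which bears on this count. Beside it, 27.3% of all 17207 genes were called higher, 26.3% lower and 53.6% in either direction. With library sizes alone, 71.5% instead of 50.9% of called genes were higher and the median of all genes moved by 0.215 on the log2 scale, and the same 7 genes were called. The values of each gene follow by role.

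The 3 zinc finger and homeodomain factors Nanog, Zfp42 and Sall4 changed by similar factors. Nanog had 9.04, 11.4 and 9.09 CPM in shUbc9 and 1.21, 2.85 and 1.06 CPM in shCtrl cells, 5.61-fold higher (log2 fold change 2.49 ± 0.31, adjusted p = 0.000209). The control libraries were uneven, with replicate 2 above the other 2, yet each stayed below every depleted library. Zfp42 had 4.78, 5.77 and 4.80 CPM in shUbc9 and 0.885, 1.38 and 0.588 CPM in shCtrl cells, 5.15-fold higher (adjusted p = 6.8e-05). Sall4 had 5.66, 9.88 and 8.04 CPM in shUbc9 and 1.65, 1.23 and 0.823 CPM in shCtrl cells, 6.04-fold higher (adjusted p = 7.96e-05). Neither gene overlapped between the groups. Of the genes that rose, Nanog and Zfp42 hold the octamer letters in the windows searched, and Nr0b1, Esrrb and Tfcp2l1 do not. No window was at hand for Sall4 and Prdm14. Whether these letters bear on the response was not tested.

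Both orphan nuclear receptors were higher. Nr0b1 had 1.84, 2.39 and 2.36 CPM in shUbc9 and 0.233, 0.120 and 0 CPM in shCtrl cells, from 10, 4 and 0 reads in the controls, and its fitted change was 14.7-fold (log2 fold change 3.88 ± 0.40, adjusted p = 7.73e-05). With so few control reads the size of that fold is loosely set. Esrrb had 3.54, 5.39 and 5.47 CPM in shUbc9 and 1.37, 1.77 and 0.294 CPM in shCtrl cells, 3.84-fold higher (adjusted p = 0.00261), with control replicate 3 lowest. Tfcp2l1, a target of STAT3, had 18.4, 26.5 and 24.1 CPM in shUbc9 and 12.2, 12.0 and 10.7 CPM in shCtrl cells, 1.97-fold higher (adjusted p = 0.000529), and it was the gene of the 7 with the smallest fold. Prdm14 had 0.495, 0.813 and 0.793 CPM in shUbc9 and 0.209, 0.330 and 0.118 CPM in shCtrl cells, 3.0-fold higher (adjusted p = 0.00612). In all 4 genes every depleted library was above every control library.

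The 3 genes that were not called had overlapping groups. Klf2 had 1.68, 4.73 and 3.52 CPM in shUbc9 and 3.61, 4.11 and 4.29 CPM in shCtrl cells, with a log2 fold change in the interval -0.88 to 0.37 at 2 standard errors either side. Tbx3 had 9.73, 12.7 and 11.4 CPM in shUbc9 and 14.9, 12.2 and 21.4 CPM in shCtrl cells (log2 fold change -0.50 ± 0.20, adjusted p = 0.0603). It was called lower with DESeq2 (adjusted p = 0.018), with no filter (0.0325) and without shCtrl replicate 2 (0.0108). Lin28a had 0.385, 0.610 and 0.643 CPM in shUbc9 and 0.256, 1.20 and 0.235 CPM in shCtrl cells (adjusted p = 0.905). Its control replicate 2 was above every depleted library, and without it the log2 fold change was 1.14 (adjusted p = 0.0406).

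Measured against ES cells, the D7 levels of the 7 genes that rose remained low. In shUbc9 cells Tfcp2l1 stood at 17.1% of its siCtrl ES mean, Prdm14 at 12.9% and Nanog at 10.3%, against 8.66%, 4.04% and 1.78% in shCtrl cells. Nr0b1 stood at 2.66% in shUbc9 and 0.142% in shCtrl cells, Esrrb at 2.36% in shUbc9 and 0.564% in shCtrl cells. Sall4 stood at 1.47% in shUbc9 and 0.231% in shCtrl cells, Zfp42 at 1.36% in shUbc9 and 0.253% in shCtrl cells. Lin28a was the lowest, at 0.0823% in shUbc9 and 0.0850% in shCtrl cells.

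**Figure D2:**
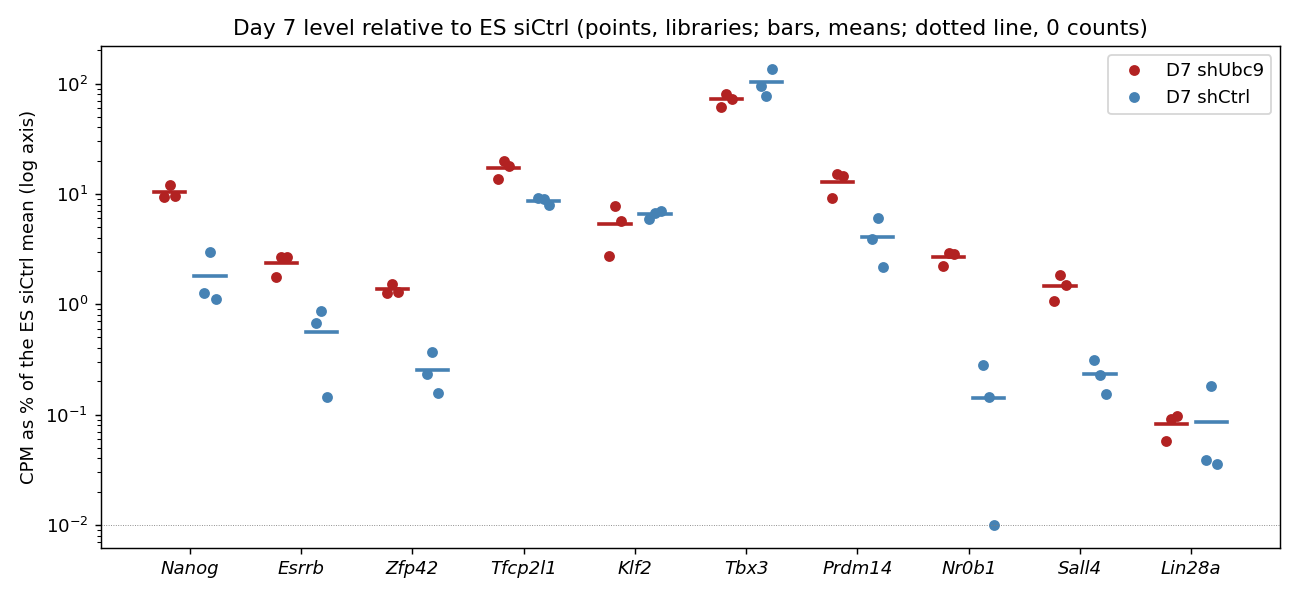
Level of each gene at D7 as a percentage of its mean in siCtrl ES cells, on a log axis, with shUbc9 (red) left of shCtrl (blue) for each gene. Points are libraries, bars are means and the dotted line stands for 0 counts. The groups are apart for Nanog, Esrrb, Zfp42, Tfcp2l1, Prdm14, Nr0b1 and Sall4 and overlap for Klf2, Tbx3 and Lin28a.

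The genes around the network at D7 were read from further lists. Of 29 other genes of pluripotent cells, 28 were tested, 23 rose and 2 fell, with a median log2 fold change of 1.78 beside 0.01 over all genes tested. Between the control libraries of D7 and D4, 22 of the 29 had enough counts to test. Some thus passed the filter here through the depleted libraries and had to differ, which bears on this count and median. Gdf3, a secreted ligand related to Nodal, averaged 20.5 ± 1.72 CPM in shUbc9 and 3.65 ± 0.525 CPM in shCtrl cells (SD, n = 3 each, adjusted p = 2.48e-06). Rif1, a factor of replication timing and telomeres, averaged 150.2 ± 6.65 CPM in shUbc9 and 75.9 ± 0.785 CPM in shCtrl cells (adjusted p = 4.56e-06). The growth factor receptor gene Fgfr1 fell to 119 ± 17.6 CPM in shUbc9, against 259 ± 61.5 CPM in shCtrl cells (adjusted p = 0.000662), and Tfe3, a helix-loop-helix factor, to 46.2 ± 3.99 CPM in shUbc9, against 58.9 ± 8.12 CPM in shCtrl cells (adjusted p = 0.0293). Of the 4 OKSM factors, Pou5f1, which encodes Oct4, rose to 91.1 ± 14.3 CPM in shUbc9, against 35.2 ± 2.56 CPM in shCtrl cells (adjusted p = 2.25e-05), where transcripts of the cassette and of the native gene cannot be told apart.

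The LIF and STAT3 pathway that feeds the network moved both ways, with more falls than rises. Of its 10 genes, 2 rose and 6 fell at D7, beside 27.3% of all genes higher and 26.3% lower. The list summed to 1684 to 1790 CPM in shUbc9 and 2833 to 3139 CPM in shCtrl cells, a sum in which Il6st weighs heavily. The ligand gene Lif rose to 20.7 ± 1.92 CPM in shUbc9, against 14.3 ± 0.889 CPM in shCtrl cells (adjusted p = 0.00217), and the STAT3 target Pim3 to 32.3 ± 7.88 CPM in shUbc9, against 18.2 ± 2.0 CPM in shCtrl cells (adjusted p = 0.0043). The receptor genes fell, Il6st to 513 ± 34.8 CPM in shUbc9, against 1441 ± 148 CPM in shCtrl cells (adjusted p = 7.57e-06), and Lifr to 100.2 ± 5.45 CPM in shUbc9, against 176 ± 13.3 CPM in shCtrl cells (adjusted p = 3.89e-05). Beside these changes, 16 of 18 fibroblast markers fell and 1 rose, and their summed level was 20618 to 24923 CPM in shUbc9 and 44538 to 61576 CPM in shCtrl cells. Of 15 epithelial markers, 14 rose and 0 fell, with sums of 949 to 1035 CPM in shUbc9 and 289.7 to 379.7 CPM in shCtrl cells. Their part in the values of the 10 genes was not tested.

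In iPS cells the comparison of shUbc9 with shCtrl called 0 of the 10 genes and 0% of all 17294 genes with edgeR, 1 of the 10 and 246 of all at an unadjusted p under 0.05, and DESeq2 called 0 of the 10 and 7 genes in all. Klf2 had 117, 87.9 and 90.4 CPM in shUbc9 and 40.3 and 60.7 CPM in shCtrl libraries, a log2 fold change of 0.95 ± 0.35 (adjusted p = 1). Its groups did not overlap, and a single fit of all 28 libraries called it (adjusted p = 0.0134). Nanog had 322, 345 and 313 CPM in shUbc9 and 234 and 239.5 CPM in shCtrl libraries, and Prdm14 had 62.5, 42.6 and 49.9 CPM in shUbc9 and 29.6 and 37.6 CPM in shCtrl libraries. These 2 did not overlap either, and the log2 differences lay in the interval -0.14 to 1.03 for Nanog and -0.10 to 1.31 for Prdm14 at 2 standard errors either side.

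The other 7 genes overlapped between the iPS groups, and libraries of the same group differed widely. Tbx3 had 79.5, 193 and 37.6 CPM in shUbc9 and 86.0 and 118 CPM in shCtrl libraries. Nr0b1 had 346, 157 and 72.1 CPM in shUbc9 and 84.7 and 202 CPM in shCtrl libraries. Sall4 had 356, 631 and 186 CPM in shUbc9 and 273 and 429 CPM in shCtrl libraries, and here as for Esrrb and Tbx3 the highest library was shUbc9 replicate 2, the shallowest of all with 11.4 M counts. That library also stood apart in fibroblast markers, with a sum of 3998 CPM against 1246 to 2210 CPM in the other 4 iPS libraries, in macrophage markers, with 338 CPM against 114 to 227 CPM, and in its share of counts in repeats, 7.22% against 14.1% to 19.1%. Without it, 0 of the 10 genes were called in iPS cells. Zfp42 was lowest in that same library, with 111, 44.0 and 91.2 CPM in shUbc9 and 76.5 and 109 CPM in shCtrl libraries. Esrrb averaged 555 ± 275 CPM in shUbc9 and 490.0 ± 90.4 CPM in shCtrl libraries (SD, n = 3 shUbc9 and 2 shCtrl). Tfcp2l1 averaged 416 ± 66.5 CPM in shUbc9 and 436 ± 37.4 CPM in shCtrl libraries, and Lin28a 296 ± 103 CPM in shUbc9 and 326 ± 207 CPM in shCtrl libraries. For the 10 genes the standard error of the log2 difference was between 0.29 and 0.67. The Klf2 difference of 0.95 ± 0.35 was not called, so even changes well above their standard error could go uncalled at this spread.

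In ES cells depletion of Ubc9 was accompanied by lower RNA of 9 of the 10 genes and higher RNA of 0. Beside this, 17.8% of all 17859 genes were called lower, 21.3% higher and 39.1% in either direction. Prdm14 changed most, with 2.08, 1.85 and 1.80 CPM in siUbc9 and 5.52, 5.01 and 5.74 CPM in siCtrl cells, 2.73-fold lower (log2 fold change -1.45 ± 0.11, adjusted p = 1.41e-05). Nanog had 47.9, 43.9 and 46.6 CPM in siUbc9 and 99.4, 92.1 and 95.3 CPM in siCtrl cells, 1.95-fold lower (log2 fold change -0.96 ± 0.06, adjusted p = 2.51e-06). Klf2, a target of Oct4 in mouse ES cells, had 33.2, 31.1 and 30.8 CPM in siUbc9 and 61.4, 63.4 and 59.4 CPM in siCtrl cells, 1.83-fold lower (adjusted p = 7.02e-06). Every siUbc9 library was below every siCtrl library in these 3 genes. Tfcp2l1 had 77.2, 79.8 and 83.7 CPM in siUbc9 and 135, 134 and 135 CPM in siCtrl cells (1.58-fold lower, adjusted p = 5.35e-06). Epithelial markers moved the same way in this comparison, 9 of 15 lower and 1 higher, with sums of 725 to 767 CPM in siUbc9 and 854 to 858 CPM in siCtrl cells, and their part was not tested.

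The remaining falls in ES cells were smaller. Zfp42 had 241, 228 and 239 CPM in siUbc9 and 407, 344 and 376 CPM in siCtrl cells (1.50-fold lower, adjusted p = 0.000131). Tbx3 had 10.6, 10.1 and 10.8 CPM in siUbc9 and 14.1, 17.8 and 15.3 CPM in siCtrl cells (1.42-fold lower, adjusted p = 0.00401). Esrrb had 142, 134 and 143 CPM in siUbc9 and 206, 201 and 202 CPM in siCtrl cells (1.37-fold lower, adjusted p = 0.000157). No library of these 3 genes crossed between the groups. Nr0b1 had 59.0, 58.9 and 58.0 CPM in siUbc9 and 89.9, 77.1 and 80.8 CPM in siCtrl cells (1.33-fold lower, adjusted p = 0.000443), and Sall4 had 374, 376 and 392 CPM in siUbc9 and 487, 584 and 533 CPM in siCtrl cells (1.32-fold lower, adjusted p = 0.00363).

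Lin28a was the gene not called in ES cells, with 588, 539 and 536 CPM in siUbc9 and 696, 620.4 and 673 CPM in siCtrl cells (log2 fold change -0.17 ± 0.07, adjusted p = 0.1). Its groups did not overlap, and it was called lower without siUbc9 replicate 1 (adjusted p = 0.0062) and with library sizes alone (0.0181). In a single fit of all 28 libraries, whose shared spread includes the uneven iPS libraries, 4 of the 10 genes stayed called. Those lost there were Esrrb (adjusted p = 0.543), Zfp42 (0.0924), Tbx3 (0.336), Nr0b1 (0.566) and Sall4 (0.479).

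**Figure D3:**
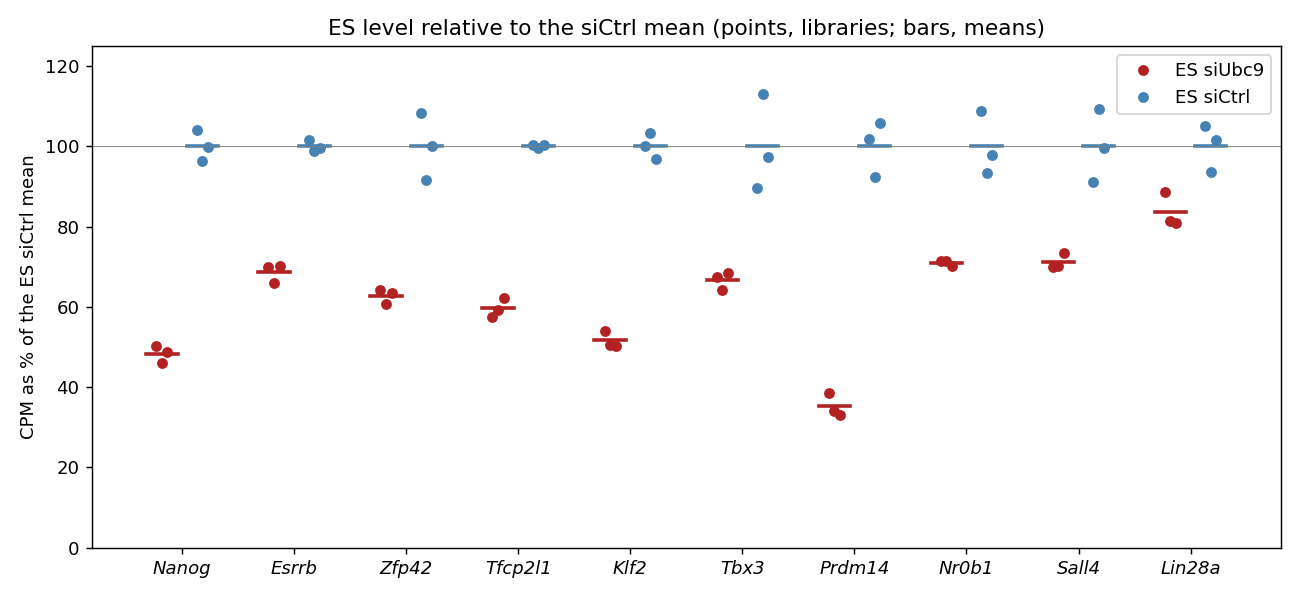
Level of each gene in ES cells as a percentage of its siCtrl mean, with siUbc9 (red) left of siCtrl (blue). Points are libraries and bars are means. The siUbc9 means run between 35.2% for Prdm14 and 83.6% for Lin28a.

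Of the 29 other genes of pluripotent cells, 15 fell and 3 rose in ES cells, with a median log2 fold change of -0.24 beside 0.01 over all genes tested. Whether that list and the 10 genes differ was not tested. Gbx2, a homeobox gene downstream of LIF, fell to 11.9 ± 1.19 CPM in siUbc9, against 38.8 ± 2.35 CPM in siCtrl cells (adjusted p = 1.09e-06), and Fgf4, an autocrine growth factor, to 122 ± 3.02 CPM in siUbc9, against 246 ± 18.9 CPM in siCtrl cells (adjusted p = 2.53e-06). Dppa3, a gene of the egg, germ cells and early embryo, rose to 24.1 ± 0.0747 CPM in siUbc9, against 5.29 ± 1.00 CPM in siCtrl cells (adjusted p = 6.84e-07), and Lin28b, the relative of Lin28a, to 86.5 ± 0.646 CPM in siUbc9, against 76.5 ± 7.42 CPM in siCtrl cells (adjusted p = 0.00792). Of the 10 LIF and STAT3 genes, 2 rose and 4 fell, beside 21.3% of all genes higher and 17.8% lower. Among them Lif rose to 9.21 ± 0.796 CPM in siUbc9, against 4.75 ± 0.289 CPM in siCtrl cells. Lifr fell to 169 ± 5.80 CPM in siUbc9, against 256 ± 10.8 CPM in siCtrl cells. The two-cell embryo list, which is active in a small share of ES cells, had 5 of 6 tested genes higher and 0 lower, with Zscan4c at 131 ± 3.38 CPM in siUbc9 and 15.1 ± 1.11 CPM in siCtrl cells. The Zscan4 genes of that list are near-identical copies whose reads may be split by the counting. Whether the same cells carry both changes was not tested.

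Under the control hairpin, 4 days of OKSM left 7 of the 10 genes below 1 CPM. Of the 4 genes with enough counts to test, Tbx3 rose and Klf2 fell, beside 33.3% of all 16715 genes higher, 33.5% lower and 66.7% in either direction. Klf2 fell to 3.65 ± 0.191 CPM at D4, against 14.4 ± 1.59 CPM in MEF (SD, n = 3 each, 3.98-fold, adjusted p = 2.37e-07), and Tbx3 rose to 17.9 ± 2.36 CPM at D4, against 13.3 ± 1.11 CPM in MEF (1.33-fold, adjusted p = 0.00809). The Tbx3 call was lost in a single fit of all 28 libraries (adjusted p = 0.304). Sall4 had 4, 8 and 4 reads in the D4 libraries and 0 in MEF, which puts it at least 6.34-fold higher when the MEF group is set to its floor of 3 reads. Zfp42 had 5, 22 and 19 reads in the D4 libraries and 0, 0 and 1 in MEF, with no overlap, and missed the filter. DESeq2 called Zfp42 and Sall4 higher too, the fit with no filter these and Lin28a, and Zfp42 was called in 4 of 6 fits without a library. Of 12 tested epithelial markers 9 rose and 1 fell, and of 14 macrophage markers 3 rose and 11 fell, and their part was not tested. With library sizes alone, 62.2% instead of 49.8% of called genes were higher and the median of all genes moved by 0.104 (log2).

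Under the control hairpin, D7 cells had more RNA of 3 of the genes than D4 cells. Nanog, Tfcp2l1 and Sall4 rose and 0 fell among 6 tested, beside 10.6% of all 16792 genes higher, 7.65% lower and 18.2% in either direction. Tfcp2l1 averaged 11.6 ± 0.829 CPM at D7 and 2.33 ± 0.244 CPM at D4 (SD, n = 3 each, 5.02-fold, adjusted p = 3.65e-05), and Sall4 averaged 1.24 ± 0.415 CPM at D7 and 0.150 ± 0.0366 CPM at D4 (8.61-fold, adjusted p = 0.000939). Nanog averaged 1.71 ± 0.993 CPM at D7 and 0.406 ± 0.127 CPM at D4 (4.15-fold, adjusted p = 0.0173), and the call did not survive leaving out replicate 1 of D4 shCtrl (adjusted p = 0.0606) or its replicate 3 (0.0788). Zfp42 missed the threshold (log2 fold change 1.24 ± 0.37, adjusted p = 0.0538) and passed it with no filter (0.0451) and without D7 shCtrl replicate 3 (0.0297). Sall4 passed the filter through the D7 libraries alone. Esrrb, below the filter, had 59, 59 and 5 reads at D7 and 1, 3 and 4 at D4, and DESeq2 and the fit with no filter called it and Lin28a higher. Klf2 and Tbx3 overlapped between the days. In the same comparison 13 of 15 epithelial markers rose and 0 fell, with sums of 289.7 to 379.7 CPM at D7 and 216 to 221 CPM at D4, and 7 of 18 fibroblast markers rose and 0 fell, and their part was not tested. With library sizes alone 39.4% instead of 58.0% of called genes were higher.

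All 10 genes were higher in shCtrl iPS cells than in shCtrl cells at D7, beside 36.2% of all 18056 genes called higher, 37.6% lower and 73.8% in either direction, with the median of all genes moved by 0.216 (log2) with library sizes alone. Log2 fold changes ran between 2.65 for Tbx3 and 9.88 for Nr0b1. The Nr0b1 value rests on 10, 4 and 0 reads in the D7 shCtrl libraries, so its size is loosely set. Lin28a, still rare at D7, averaged 326 ± 207 CPM in iPS cells (n = 2) and 0.564 ± 0.551 CPM at D7 (n = 3, adjusted p = 3.81e-05). Tfcp2l1, already at 11.6 CPM at D7, was 37.0-fold higher (adjusted p = 3.93e-06).

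The 2 pluripotent states did not carry the network at equal levels. In shCtrl iPS cells 5 genes were higher than in siCtrl ES cells and 3 were lower, beside 27.3% of all 18108 genes higher, 26.0% lower and 53.3% in either direction. Tbx3 was 6.15-fold higher (adjusted p = 0.000151), Prdm14 5.89-fold, Tfcp2l1 3.09-fold, Nanog 2.36-fold and Esrrb 2.29-fold higher. Zfp42 had 76.5 and 109 CPM in iPS cells, against 407, 344 and 376 CPM in ES cells, 4.27-fold lower (adjusted p = 0.000262). Sall4 (adjusted p = 0.0259) and Lin28a (adjusted p = 0.0392) were also lower. Sall4 was no longer called without ES siCtrl replicate 2 (0.0926) or 3 (0.0614), and Lin28a without any of the ES siCtrl replicates (0.0609 to 0.0991). Klf2 and Nr0b1 were not called, and they passed without iPS shCtrl replicate 3 (Klf2, adjusted p = 0.00126) or replicate 1 (Nr0b1, 7.26e-05).

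Cell source, cassette and delivery of the inhibitor differ between those iPS and ES cells and cannot be told apart from the state. Fibroblast markers summed to 1319 to 2210 CPM in shCtrl iPS cells and to 618 to 894 CPM in siCtrl ES cells, with 11 of 18 higher and 0 lower in iPS. Macrophage markers summed to 114 to 227 CPM in shCtrl iPS cells and to 77.3 to 78.2 CPM in siCtrl ES cells, where 3 of 14 were at 0. The part of other cells in these differences was not tested.

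Responses to depletion were set against each other by testing the difference between them. From D4 to D7 the response of Zfp42 was higher by 1.70 ± 0.45 on the log2 scale (adjusted p = 0.0257) and that of Tfcp2l1 by 1.55 ± 0.24 (adjusted p = 0.00114), 2 of 10 genes, beside 6.04% of all 17676 genes higher, 6.24% lower and 12.3% in either direction. Tfcp2l1 was thus lower with depletion at D4 and higher at D7. The Zfp42 call was lost in 5 of 12 fits without a library (adjusted p 0.0545 to 0.0931), those without D4 shCtrl replicate 2 or 3, D4 shUbc9 replicate 1 or 2, or D7 shCtrl replicate 1, and in a single fit of all 28 libraries (0.104). Nanog missed the threshold (log2 difference 1.51 ± 0.53, adjusted p = 0.0865), and passed it with DESeq2 (0.0222) and without D7 shCtrl replicate 2 (0.00332). With library sizes alone 72.9% instead of 49.2% of called genes were higher.

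The ES response was lower than the D7 response in 7 of the 10 genes and higher in 0, beside 24.3% of all 19395 genes lower, 20.1% higher and 44.3% in either direction. Nr0b1 differed by -4.34 ± 0.31 on the log2 scale (adjusted p = 8.28e-08), Nanog by -3.51 ± 0.27 (adjusted p = 1.72e-07) and Prdm14 by -3.08 ± 0.34 (adjusted p = 5.03e-06). The Nr0b1 difference rests on 10, 4 and 0 reads in the D7 shCtrl libraries, so its size is loosely set. Sall4, Zfp42, Esrrb and Tfcp2l1 differed by between -3.03 and -1.70. These 7 are the genes that rose at D7 and fell in ES cells. Klf2 (log2 difference -0.69 ± 0.30, adjusted p = 0.0731), Tbx3 and Lin28a were not called. Klf2 was called with library sizes alone (0.0256), with no filter (0.023) and without D7 shUbc9 replicate 1 (0.000242), and Lin28a without D7 shCtrl replicate 2 (0.00525). The ES cells were treated with small interfering RNA and not a hairpin, so state, extent of depletion and delivery cannot be told apart. With library sizes alone 32.4% instead of 45.2% of called genes were higher and the median moved by -0.197.

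**Figure D4:**
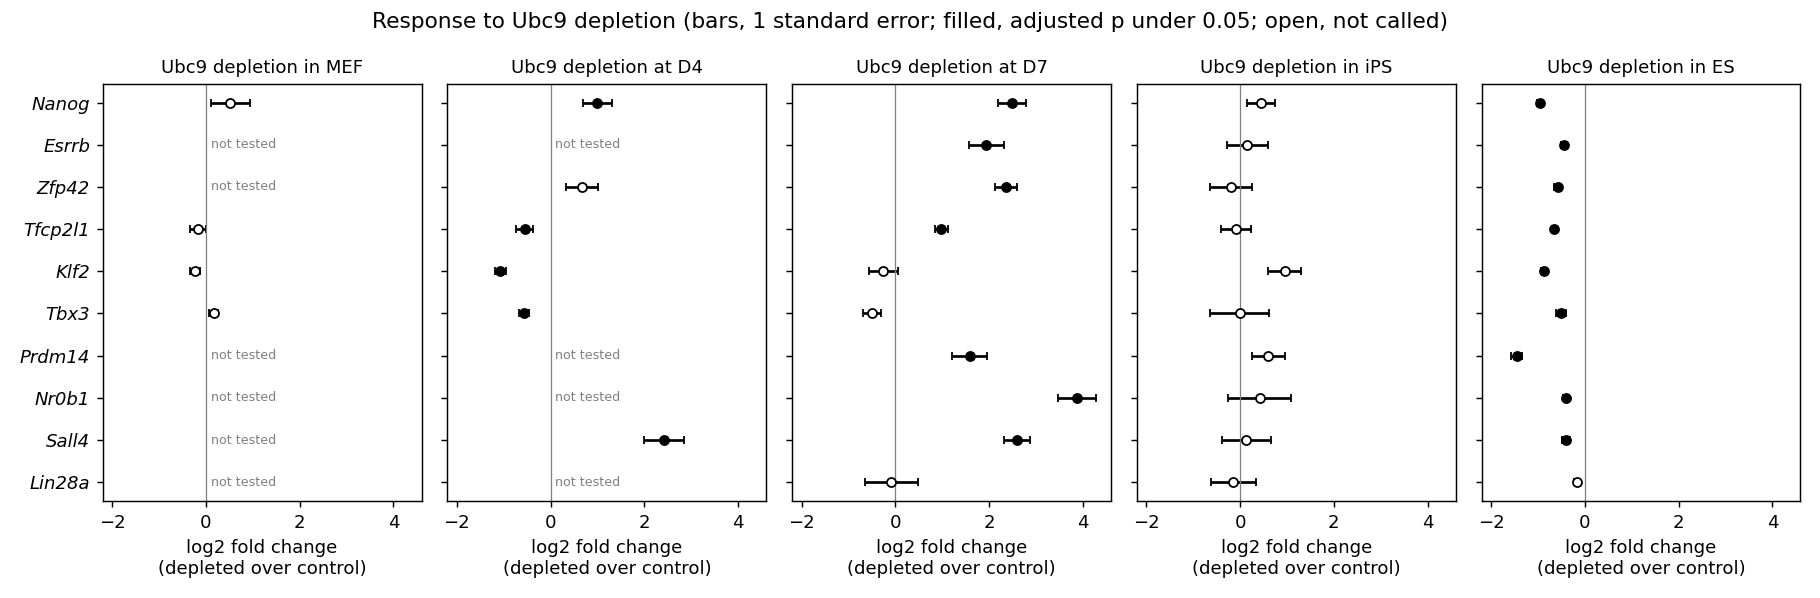
Log2 fold change with Ubc9 depletion for each gene in the 5 cell states, with bars of 1 standard error. Filled points are called at an adjusted p under 0.05 and open points are not. At D7 the 7 filled points lie right of 0, and in ES cells the 9 filled points lie left of 0.

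The iPS response was higher than the ES response for Nanog (log2 difference 1.38 ± 0.20, adjusted p = 0.00996), Klf2 (1.79 ± 0.29, adjusted p = 0.0151) and Prdm14 (2.01 ± 0.30, adjusted p = 0.0114), 3 of 10 genes and 0 lower, beside 0.323% of all 19186 genes higher, 1.04% lower and 1.37% in either direction. State, extent of depletion and delivery cannot be told apart here either. The calls are near the threshold. Klf2 was lost without any ES siCtrl replicate, ES siUbc9 replicate 2 or 3, or iPS shCtrl replicate 1 (adjusted p 0.0547 to 0.0683), Prdm14 without ES siUbc9 replicate 2 (0.0576) or 3 (0.0569) or iPS shCtrl replicate 1 (0.0556), and Nanog without ES siUbc9 replicate 2 (0.0576) or 3 (0.0542). Tfcp2l1 was called without iPS shUbc9 replicate 2 (0.021) and in a single fit of all 28 libraries (0.0394).

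Within the set, 8 of the genes shared a profile over the 10 group means of log2 CPM and Klf2 and Tbx3 did not follow it as closely. Pearson's r between pairs of the 8 was 0.88 to 0.99, for Klf2 with those 8 it was 0.66 to 0.81, and for Tbx3 with the other 9 it was 0.40 to 0.76. These are descriptions over 10 means that share cell states, with no test. Among 13083 genes outside the set with a mean of at least 5 CPM in some group, Tcl1 was nearest to Esrrb (r = 0.998) and second nearest to Nanog (0.995), after AU015836 (0.996). Zscan10 was nearest to Zfp42 (0.998), Eras to Nr0b1 (0.997), Tdgf1 to Sall4 (0.997) and Triml1 to Lin28a (0.997). Tjp3 was nearest to Tfcp2l1 (0.988), Myo15b to Prdm14 (0.992), BC051226 to Klf2 (0.979) and Ism2 to Tbx3 (0.986). The second nearest were Septin1 for Esrrb (0.995), Zp3 for Zfp42 (0.996), Vwf for Tfcp2l1 (0.988), Lck for Klf2 (0.979), Sf3b4 for Tbx3 (0.985), Bcl2l14 for Prdm14 (0.990), Dtx1 for Nr0b1 (0.997), Nr5a2 for Sall4 (0.996) and Sycp1 for Lin28a (0.996). These orders hold at a prior count of 2 in the log2 CPM. With a prior count of 0.5, Tcl1 (0.992) came before AU015836 (0.988) for Nanog and Nr5a2 (0.997) before Tdgf1 (0.995) for Sall4.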

How the data were processed

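RNA was read from 28 libraries in 10 groups. Per the file headers, the authors deposited a read count per gene for each library, with no normalization; build mm9, the aligner STAR 2.5.0a and, with no version, featureCounts and DESeq2 are listed by the submitters' processing notes. The labels' protocols state a stranded, ribosome-depleted total RNA kit, and the strand setting of the counting is not stated. Symbols and promoter sequences came from RefSeq tables of GRCm38.p6, so no position in the peak lists, which are on mm9, was tied to a gene, and the peak lists were not used here.

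The test was edgeR 4.0.16 under R 4.3.3. Each comparison kept genes by filterByExpr (minimum count 10), scaled libraries by TMM, and applied the two-sided quasi-likelihood test with Benjamini-Hochberg adjustment over all genes tested; the scripts were tested on simulated data. CPM used effective library sizes over all 28 libraries, and log2 CPM a prior count of 2. Differences of response were interaction terms. Fold changes are fitted, with standard errors. The low counts in MEF and D4 limit precision, and floors cover counting error only.

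Alternatives were DESeq2 1.42.0, RLE factors, library sizes alone, no filter, a fit of all libraries, a replicate block and leaving out each library. The level of the targeted RNA is not reported here. The genes and lists were chosen with earlier results of these data known. Genes named beside the 10 were, for each list, up to 2 rises and 2 falls with the smallest p, and for each of the 10 the 2 with the highest Pearson's r.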

Additional observations from a re-analysis of the deposited data

Results flagged for a closer look

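For 12 results the response to Ubc9 depletion differed between 2 cell states by a test of the difference itself. At D7 relative to D4, the log2 response was higher by 1.70 for Zfp42 and 1.55 for Tfcp2l1. In ES cells relative to D7 it differed by -3.51 for Nanog, -2.42 for Esrrb, -3.00 for Zfp42, -1.70 for Tfcp2l1, -3.08 for Prdm14, -4.34 for Nr0b1 and -3.03 for Sall4. In iPS cells relative to ES cells it was higher by 1.38 for Nanog, 1.79 for Klf2 and 2.01 for Prdm14. The Nr0b1 difference rests on few reads in the D7 shCtrl libraries, so its size is loosely set. The groups hold 2 or 3 libraries, too few for a test of the gap between one library and the others of its group.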

How the results depend on the processing

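Over all settings, 1222 of 1334 values of single genes kept direction and side of the threshold, 38 lost a call and 22 gained one. Another 52 changed sign, all in values that were not called in the separate fits. Among these 52, Lin28a at D7 was called with its changed sign without shCtrl replicate 2 (log2 fold change 1.14, adjusted p = 0.0406). A fit of all 28 libraries lowered most counts of called genes, to 42 in MEF (984 in the separate fit), 4417 at D4 (9051), 2722 in ES cells (6986), 6252 for control D4 against MEF (11152), 1019 for control D7 against D4 (3057), 405 for D7 minus D4 (2171) and 4655 for ES minus D7 (8601), and raised it to 920 in iPS cells (0) and 1847 for iPS minus ES (262); its shared spread includes the iPS libraries. Among the 10 genes it called 4 in ES cells (9), 1 in iPS cells (0), 1 for control D4 against MEF (2) and 1 for D7 minus D4 (2). DESeq2 called 8 of the 10 at D4 (5), 4 for control D4 against MEF (2) and 5 for control D7 against D4 (3), and 7 genes in all in iPS cells and 851 for iPS minus ES. With no filter the counts of the 10 were 8, 5 and 6 in these 3 comparisons, since more of them are tested, and 5 genes in all were called in iPS cells, 1 with RLE factors.

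Leaving out a library gave 266 to 1717 called genes in MEF, 0 to 2 in iPS cells, 1669 to 2955 for control D7 against D4, 1386 to 2866 for D7 minus D4 and 74 to 1518 for iPS minus ES. Of the 10 genes it called 0 to 1 in MEF, 3 to 5 for control D7 against D4, 1 to 3 for D7 minus D4 and 0 to 4 for iPS minus ES. Log2 values that changed sign on the way ranged over -0.17 to 0.98 for Nanog in MEF, -0.57 to 1.14 for Lin28a and -0.58 to 0.06 for Klf2 at D7, and, in iPS cells, -0.33 to 0.38 for Esrrb, -0.22 to 0.02 for Tfcp2l1, -0.36 to 1.12 for Nr0b1, -0.40 to 0.45 for Sall4, -0.47 to 0.09 for Zfp42, -0.83 to 0.37 for Tbx3 and -0.68 to 0.66 for Lin28a. They ranged over -0.13 to 0.42 for Nanog (control D4 against MEF), -0.39 to 0.01 for Tbx3 (control D7 against D4), -1.25 to 0.70 for Prdm14, -2.83 to 1.29 for Nr0b1, -0.07 to 0.51 for Sall4 and -0.03 to 0.35 for Tbx3 (D7 minus D4), -1.32 to 0.37 for Lin28a and -0.31 to 0.11 for Tbx3 (ES minus D7), and -0.51 to 0.82 for Lin28a and -0.30 to 0.82 for Tbx3 (iPS minus ES). The cause was not tested. Other changes of sign were Lin28a at D7 with library sizes alone (0.10) and Tbx3 in iPS cells with RLE factors (0.00) or in the fit of all libraries (0.07).

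Replicate numbers are given in the labels, but in no comparison did every same-numbered pair deviate together with a correlation over 0.1 (range -0.424 to 0.275), although all 3 pairs were positive in ES cells (0.023 to 0.145) and for control D4 against MEF (0.080 to 0.251). Every library matched its own number best for control D4 against MEF (6 of 6), 5 of 6 did in ES cells, 2 of 6 for control D7 against D4, 1 of 6 at D4 and 0 of 6 at D7. With a replicate block the called genes were 1868 in MEF, 81 in iPS cells, 4608 for control D7 against D4, 1019 for D7 minus D4 and 495 for iPS minus ES; Lin28a in ES cells (adjusted p = 0.038) and Zfp42 for control D7 against D4 (0.0303) gained a call. Signs changed in uncalled values, for Lin28a at D7 (0.04), for Esrrb (-0.31), Zfp42 (0.12), Tfcp2l1 (0.02), Sall4 (-0.43) and Lin28a (0.18) in iPS cells and for Tbx3 (-0.40) and Sall4 (-0.02) in iPS minus ES. The planned search for peaks at the 10 genes was not run because no mm9 annotation was used here. In MEF and at D4, Esrrb, Prdm14, Nr0b1 and Lin28a had too few reads for the count filter, so depth limits what is said of them there.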

Other observations

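Genes of the states that follow naive pluripotency, and of neighbouring lineages, were counted in the same fits, where 17.8% of all genes were lower and 21.3% higher in siUbc9 ES cells and 26.3% lower and 27.3% higher in shUbc9 cells at D7. Of 12 tested genes of the formative and primed epiblast, 6 fell and 1 rose in siUbc9 ES cells. Fgf5, a growth factor gene of the primed epiblast, fell to 2.85 ± 0.382 CPM in siUbc9, against 8.93 ± 0.917 CPM in siCtrl cells (SD, n = 3 each, adjusted p = 1.39e-05), and Grhl2, a grainyhead factor, to 90.9 ± 2.82 CPM in siUbc9, against 158 ± 3.44 CPM in siCtrl cells (adjusted p = 5.71e-06). The rise was in the primitive streak gene T. Of 12 genes listed for the exit from the naive state, not all of which promote it, 5 fell and 1 rose in siUbc9 ES cells. At D7, 4 of the 12 rose and 5 fell. Among them Dusp6, a phosphatase that limits ERK, rose to 49.9 ± 4.16 CPM in shUbc9, against 17.8 ± 2.65 CPM in shCtrl cells (adjusted p = 2.16e-05).

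In siUbc9 ES cells 7 of 10 primitive endoderm genes, 4 of 9 trophoblast genes and 3 of 10 germ cell genes fell, and 0, 1 and 3 rose, the germ cell counts lying near the shares over all genes. In shUbc9 cells at D7, 6 of 8 primitive endoderm genes, 1 of 8 trophoblast genes and 2 of 7 germ cell genes fell, and 1, 5 and 2 rose, the germ cell counts again near those shares. The trophoblast list went against its count in sum, with 45.6 to 56.1 CPM in shUbc9 and 76.9 to 83.5 CPM in shCtrl cells. The primitive endoderm list summed to 1588 to 1811 CPM in shUbc9 and 2849 to 2997 CPM in shCtrl cells. It was higher in fibroblasts, at 3245 to 3261 CPM in shCtrl MEF, than in siCtrl ES cells, at 460 to 498 CPM. The part of fibroblast RNA in its fall was not tested. In shCtrl iPS cells 8 of 12 formative and primed epiblast genes were lower than in siCtrl ES cells and 0 were higher, beside 26.0% of all genes lower and 27.3% higher, with Fgf5 at 0.175 ± 0.0532 CPM in iPS (n = 2) and 8.93 ± 0.917 CPM in ES cells (n = 3, adjusted p = 8.45e-05).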
